A study of Mus musculus with 6 samples.

Results

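The renin-angiotensin genes followed here were Ren1, Ren2, Agt, Ace, Agtr1a and Enpep, 6 of the 18342 named genes on a mouse expression array, measured by 9 of 41145 array features. They were chosen by a measured result: Ren1 and Ren2 had given higher signal in FCR than in Fah liver at all 3 drug regimens, and the other 4 act in the same pathway. The difference between the genotypes is therefore described for these genes and not tested. The tests are kept for the response to drug withdrawal, whose mean over both genotypes did not enter the choice. The difference of that response between the genotypes is built from the same FCR minus Fah values. For Ren1 and Ren2 its test is therefore not free of the choice. All 6 genes passed the filter on dim probes.

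RNA came from 6 livers, 1 array each, of mice on a BL6 strain background, and every mouse carried the Fah allele del_tm1Mgo. Loss of Fah, the last enzyme of tyrosine breakdown, injures the liver unless the drug NTBC blocks an earlier step. The 3 arrays called Fah came from mice with this deletion alone, and the 3 called FCR from mice that also lacked Rag2 (del_tm1Fwa) and the common gamma chain (del tm1Wjl), and so lack mature T, B and NK cells. Per the labels, drinking water held NTBC at 7.5 µg/ml in treated phases. In each genotype 1 array was of liver kept on NTBC throughout (healthy liver in Fah, normal liver in FCR), 1 of the regimen labelled off and 1 of the regimen labelled 2xoff/on, both of which had 2 courses of withdrawal with NTBC given again, as far as the labels tell. The Fah livers of these regimens were labelled tumour and the FCR livers inflamed, so genotype and tumour tissue cannot be told apart under withdrawal. The phase of NTBC at collection, the age of the mice and whether each array stands for an animal of its own are not given in the labels, and p-values measure only the spread between these 6 samples. Continuous NTBC and off lay on slide 1 and both 2xoff/on arrays on slide 2, so that these regimens and the slides change together.

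Renin, made from Ren1 and in some strains also from Ren2, is a protease known mainly from the juxtaglomerular cells of the kidney. It cuts angiotensinogen, the Agt product, which hepatocytes release into blood, and ACE then turns the resulting peptide into angiotensin II. Angiotensin II acts in liver mainly through the receptor encoded by Agtr1a, and aminopeptidase A, encoded by Enpep, trims it further. Mouse strains differ in their renin genes: C57BL/6 carries a single gene, while other strains, DBA/2 among them, carry Ren2 as an adjacent copy of nearly the same sequence. These mice are labelled as on a BL6 background, and which renin alleles they carried was not measured. Ren2 below therefore names what its probe read. Whether the mice carry a Ren2 gene, or the probe reads Ren1 RNA, was not tested.

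Between 60.5% and 74.5% of 43379 spots per array lay well above background, and no spot was saturated. Levels below are log2 processed signal minus that of the array's own 75th percentile, which ranged from 363 to 890 in scanner units. Hepatocyte markers were well above background on all 6 arrays for all 7 genes of the list that the array measured. Of 7 kidney markers, 2 to 4 were well above background on an array. Slc34a1 and Slc12a1, transporters of the kidney tubule, were well above background on none, and Aqp2 was on all 6. Of the 7 kidney markers, these 3 read higher in FCR liver at all 3 regimens, Slc34a1 and Slc12a1 with values at background and Aqp2 at -0.68, -1.69 and -1.03 against -0.91, -2.29 and -1.78 in Fah liver (continuous, off, 2xoff/on). The summed kidney marker signal (log2) lay at -0.47, -1.24 and -0.80 in FCR and at -0.15, -1.77 and -1.44 in Fah liver. Its part in the renin values was not tested. In whole liver, fewer cells of a type and less RNA per cell cannot be told apart.

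The higher renin signal in FCR liver was present at every regimen. Ren1 lay at -0.85 in normal FCR liver, -0.36 in inflamed FCR liver of the off regimen and 1.06 in that of 2xoff/on. In the Fah mice it lay at -5.23 in healthy liver, where it was not well above background, at -2.43 in the off tumour and at -1.78 in the 2xoff/on tumour. All 3 FCR livers thus lay above all 3 Fah livers, for a gene chosen on these values. The share of all genes with this order was not counted. FCR liver was at least 19.3-fold higher than Fah liver on continuous NTBC. Where a probe is not well above background, the dim array's lowest signal well above background, -5.12 for healthy Fah liver, stands in as its bound. The fold was 4.21 for off and 7.16 for 2xoff/on. Over the 3 regimens the measured log2 difference was 3.1 ± 1.18 (SD, n = 3), which takes the dim healthy array at its own value.

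Ren2 showed the same order of arrays. It lay at -1.69, -0.91 and 0.40 in FCR liver on continuous NTBC, off and 2xoff/on, and at -6.21, -3.96 and -3.48 in Fah liver at the same regimens, the first of these not well above background. The difference was at least 10.8-fold on continuous NTBC, 8.33-fold for off and 14.8-fold for 2xoff/on, with a mean log2 difference of 3.82 ± 0.74 (SD, n = 3). Scanner signals of Ren2 before scaling were 4.89, 52.0 and 79.7 in Fah liver and 116, 194 and 955 in FCR liver. The 2 renin probes followed each other over the 6 arrays (Pearson r = 0.98, a description over arrays that share scaling and design). Probe sequences are not used here, so how much Ren1 RNA the Ren2 probe picks up, and the reverse, was not tested, and the values of both are uncertain for that reason.

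A further Ren1 probe gave smaller differences in the same direction. It lay at -3.13, -3.81 and -2.29 in FCR liver and at -5.76, -4.73 and -4.29 in Fah liver, on continuous NTBC, off and 2xoff/on. It too was not well above background in healthy Fah liver, and FCR liver was at least 3.97-fold higher on continuous NTBC, 1.89-fold higher for off and 4.0-fold higher for 2xoff/on. Its mean log2 difference was 1.85 ± 0.86 (SD, n = 3), against 3.1 for the brighter Ren1 probe.

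**Figure D1:**
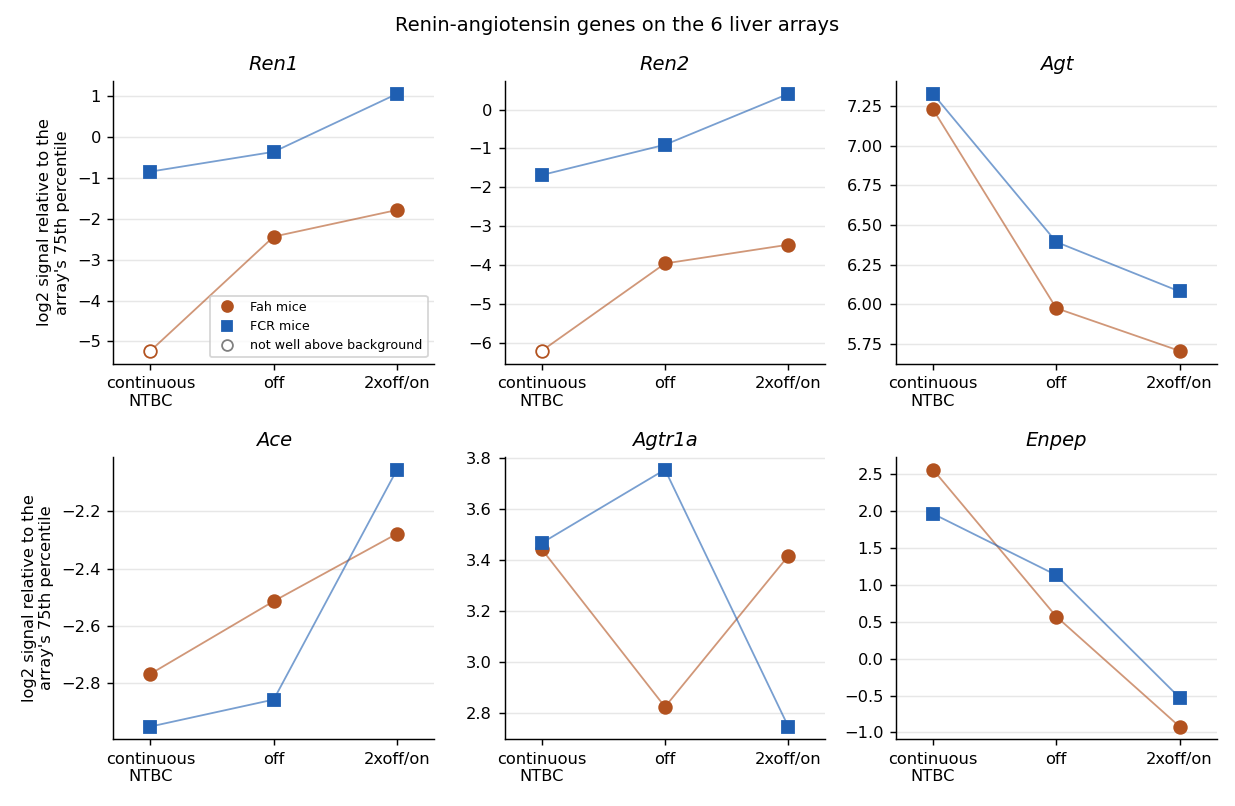
Log2 signal scaled to the 75th percentile of its array (y axis, a separate scale for each gene) for the 6 genes at the 3 NTBC regimens (x axis), 1 array per point, with Fah mice as circles, FCR mice as squares and open symbols for values not well above background. Ren1 and Ren2 lie higher in FCR at each regimen, and Agt and Enpep lie lower on all 4 withdrawn arrays than on both continuous ones.

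The other 4 members differed little between the genotypes. Agt, the renin substrate, was higher in FCR liver by 0.10 on continuous NTBC, 0.42 for off and 0.38 for 2xoff/on, a mean of 0.30 ± 0.17 (SD, n = 3) beside a median of 0.11 over all genes tested. With quantile normalization the mean for Agt turned to -0.16, and with the authors' deposited values to -0.10. Enpep differed by -0.60, 0.56 and 0.39 at the 3 regimens, Ace by -0.18, -0.34 and 0.22, and Agtr1a by 0.02, 0.93 and -0.67. None of these 3 had the same sign at all regimens.

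Higher values in FCR at all 3 regimens were thus found for Ren1, Ren2 and Agt, 3 of 6 members, and among all 15381 genes tested for 24.6%. A difference of 1 or more at each regimen was found for Ren1 and Ren2, and among all genes for 0.722%. Ren1 and Ren2 were chosen on these values, so neither count is a result about them. Only Agt is free of the choice, and the sign of its mean turned with the processing, as given above. A fit of FCR against Fah over the 3 regimens called 45 genes, or 0.293% (limma, adjusted p under 0.05), and is not read for the members.

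**Figure D2:**
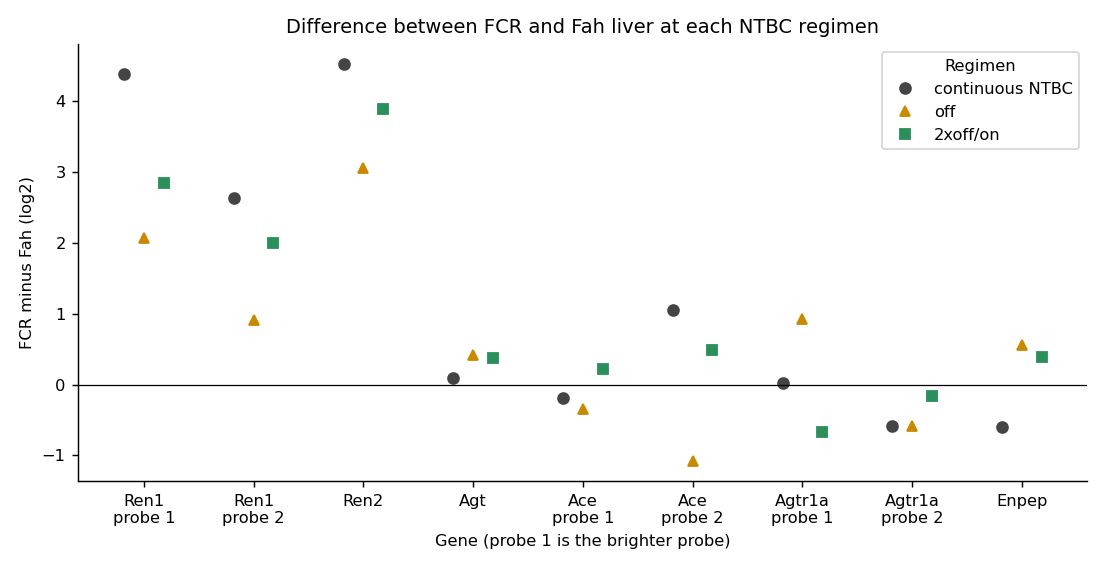
FCR minus Fah difference in log2 signal (y axis) for each of the 9 array features of the 6 genes (x axis, the brighter probe of a gene first), with 1 point per NTBC regimen. All 3 points of both Ren1 probes and of Ren2 lie above 0, from 0.92 to 4.53, while the other features lie between -1.08 and 1.05. Values for healthy Fah liver that were not well above background are drawn as measured.

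Withdrawal of NTBC was the contrast that the choice of genes did not use. In the 4 withdrawn livers against the 2 on continuous NTBC, Ren1 and Ren2 rose and Agt and Enpep fell, while Ace and Agtr1a did not pass the test. Of the 6 members, 2 were called higher, against 9.54% of all genes tested, and 2 lower, against 4.63% (limma with genotype as a covariate, Benjamini-Hochberg adjusted p under 0.05 over 15381 genes, 2180 called). The 2 higher calls were Ren1 and Ren2, whose probes may pick up each other's RNA. They may therefore not be 2 separate results, which was not tested. Over all genes the median difference was -0.02, and of all calls 67.3% were higher. That share was 56.4% with normexp background correction and 53.3% with the array median as the scale, which moved the median of all genes to -0.18 and -0.33.

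Ren1 rose by 2.16 ± 0.60 on the log2 scale (SE, n = 4 and 2, limma adjusted p = 0.0462). In Fah mice both tumours lay above healthy liver, at least 6.42-fold for off and at least 10.1-fold for 2xoff/on. In FCR mice the log2 difference from normal liver was 0.48 for off and 1.90 for 2xoff/on. Across genotypes the withdrawn and continuous arrays overlapped, since both tumours lay below normal FCR liver. The further Ren1 probe differed by 0.66 ± 0.62 (limma adjusted p = 0.574), and in FCR mice its off value lay 0.68 below normal liver on the log2 scale.

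The signal of the Ren2 probe rose by 1.96 ± 0.54 (SE, limma adjusted p = 0.0440). Off tumour lay at least 2.23-fold and 2xoff/on tumour at least 3.11-fold above healthy liver, and inflamed FCR liver lay 0.78 and 2.09 above normal liver on the log2 scale. Neither renin gene was among the 20.1% of all genes whose 4 withdrawn arrays all lay above both continuous ones. Akr1b7, a gene that marks renin cells of the kidney and is the only gene of that list, lay at -3.46 and -2.90 on continuous NTBC and between 1.81 and 4.31 on the withdrawn arrays. It was not higher in FCR liver at all 3 regimens. Its part in the renin values was not tested.

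Agt fell by 1.24 ± 0.33 on the log2 scale (SE, n = 4 and 2, limma adjusted p = 0.0416). It lay at 7.23 in healthy Fah and 7.33 in normal FCR liver, at 5.97 and 5.70 in the off and 2xoff/on tumours, and at 6.39 and 6.08 in the inflamed FCR livers of the same regimens. All 4 withdrawn arrays lay below both continuous ones. Its scanner signal before scaling was 54569 and 60050 on continuous NTBC, 50954 and 46381 in tumour tissue and 30541 and 48835 in the inflamed livers. The 75th percentile that scales an array was 363 and 374 on continuous NTBC, 811 and 890 in tumour tissue, and 363 and 722 in the inflamed livers. Other scalings gave a smaller Agt difference, -0.66 with quantile normalization (limma adjusted p = 0.172) and -0.66 with the authors' deposited values (adjusted p = 0.197).

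Enpep, which encodes aminopeptidase A, fell by 2.20 ± 0.60 on the log2 scale (SE, limma adjusted p = 0.0428). It lay at 2.56 in healthy Fah and 1.97 in normal FCR liver, at 0.57 and -0.92 in the off and 2xoff/on tumours, and at 1.13 and -0.53 in inflamed FCR liver. In both genotypes 2xoff/on was the lowest array. The fall is also visible before scaling, where Enpep read 2148 and 1459 scanner units on continuous NTBC, 1205 and 470 in tumour tissue, and 797 and 501 in inflamed FCR liver. Agt and Enpep were the 2 members with all withdrawn arrays below both continuous ones, which held for 20.9% of all genes. All 7 measured hepatocyte markers were lower in each withdrawn liver than in the continuous liver of its genotype, and their summed signal went from 11.4 on both continuous arrays to between 9.91 and 10.4 on the withdrawn ones (log2). Signal summed over 10 stellate cell, fibroblast and smooth muscle markers, all well above background on every array, was 5.31 and 5.59 on the continuous arrays and 6.59 to 7.56 on the withdrawn ones. The members did not all move with the sum: against the continuous liver of the same genotype 10 of 10 were higher in the off tumour, 9 in the 2xoff/on tumour, 7 in the off inflamed liver and 4 in the 2xoff/on inflamed liver. The part of either cell mix in the Agt and Enpep values was not tested.

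Ace and Agtr1a stayed closest to their continuous values. Ace, the converting enzyme, lay at -2.77 and -2.95 on continuous NTBC, at -2.51 and -2.28 in tumour tissue and at -2.86 and -2.05 in inflamed FCR liver, a difference of 0.43 ± 0.45 (limma adjusted p = 0.576, 95% interval -0.59 to 1.45). The further Ace probe was well above background on 2 arrays and differed by 0.92 ± 0.70 (adjusted p = 0.484). Agtr1a, the receptor, lay at 3.44 and 3.47 on continuous NTBC, at 2.82 and 3.42 in tumour tissue and at 3.76 and 2.75 in inflamed FCR liver, a difference of -0.27 ± 0.39 (adjusted p = 0.704, 95% interval -1.16 to 0.62). The further Agtr1a probe lay between -1.61 and -0.43 and differed by -0.68 ± 0.39 (limma adjusted p = 0.336). Each combination of genotype and regimen had 1 array, so neighbouring levels in the order of the arrays cannot be set against a spread of their own.

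The 4 calls lay close to the threshold and depended on single arrays. Leaving out healthy Fah liver gave adjusted p-values of 0.425 for Agt to 0.591 for Ren1, whose value became 1.19, and leaving out normal FCR liver gave 0.0615 for Ren1 to 0.198 for Agt (limma). Without the off tumour they ran from 0.0849 for Agt to 0.125 for Ren1, and without the 2xoff/on tumour from 0.0831 for Enpep to 0.168 for Agt. Without the 2xoff/on inflamed liver Ren2 was at 0.0563 and Agt at 0.0728, and without the off inflamed liver all 4 passed. Over all alternatives the adjusted p ran from 0.0116 to 0.591 for Ren1, 0.0149 to 0.482 for Ren2, 0.0196 to 0.425 for Agt and 0.0111 to 0.466 for Enpep, with no change of sign. With dim values raised to a common floor of -5.12, Ren1 differed by 2.1 (limma adjusted p = 0.142) and Ren2 by 1.42 (0.150). When each of 30427 probes was tested on its own, no member's probe passed, and the adjusted p was 0.0733 for Ren1, 0.0691 for Ren2, 0.0581 for Agt and 0.0705 for Enpep. With slide as a block only Enpep passed among the members (-1.41, limma adjusted p = 0.0470). Within slide 1, off minus continuous was 2.79 and 0.48 for Ren1 in Fah and FCR mice, 2.25 and 0.78 for Ren2, -1.26 and -0.94 for Agt and -1.99 and -0.83 for Enpep.

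Whether the response to withdrawal differed between genotypes was tested on the 4 group means. This contrast is built from the FCR minus Fah differences at the 3 regimens. Ren1 and Ren2 were chosen on those values, so for them the test is not free of the choice. Taken as the Fah response minus the FCR response, the difference was 1.93 ± 1.12 for Ren1 (SE, 95% interval -0.62 to 4.47), 1.06 ± 1.14 for Ren2 (-1.52 to 3.63), -0.30 ± 0.76 for Agt (-2.01 to 1.41) and -1.08 ± 1.24 for Enpep (-3.89 to 1.73). For Ace it was -0.12 ± 1.03 and for Agtr1a -0.11 ± 0.91. None of the 6 members passed, nor did any of the 15381 genes (limma, 0%, smallest adjusted p = 0.793), of which 332 had an unadjusted p under 0.05. No member passed this test under any alternative run, and the sign of the Ren1 and Ren2 differences turned with normexp background correction, to -0.25 and -1.22.

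Promoter sequences are shown for Ren1, Agt and Enpep, the members that passed the withdrawal test and have an entry in the RefSeq table used (GRCm38.p6), because genes of 1 pathway moved in opposite directions. Each runs from 250 bases before the start of the gene to 50 after it, 300 bases on the strand of the gene, at chr1:133350424-133350723 on the plus strand for Ren1, chr8:124569657-124569956 on the minus strand for Agt and chr3:129332700-129332999 on the minus strand for Enpep. Capitals mark TATAAA, the core of a TATA box, on either strand, where the opposite strand reads TTTATA and the pair may overlap.
Ren1: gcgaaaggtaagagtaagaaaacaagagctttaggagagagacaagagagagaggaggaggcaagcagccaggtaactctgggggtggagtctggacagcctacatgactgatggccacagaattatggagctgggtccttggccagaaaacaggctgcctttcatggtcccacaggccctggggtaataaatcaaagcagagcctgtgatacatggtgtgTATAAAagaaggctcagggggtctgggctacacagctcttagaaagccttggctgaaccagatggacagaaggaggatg
Agt: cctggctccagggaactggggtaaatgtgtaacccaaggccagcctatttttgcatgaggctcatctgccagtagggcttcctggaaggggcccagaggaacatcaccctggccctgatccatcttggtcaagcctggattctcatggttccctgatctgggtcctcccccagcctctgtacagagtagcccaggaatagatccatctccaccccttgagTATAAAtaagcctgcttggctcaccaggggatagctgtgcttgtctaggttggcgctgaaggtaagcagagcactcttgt
Enpep: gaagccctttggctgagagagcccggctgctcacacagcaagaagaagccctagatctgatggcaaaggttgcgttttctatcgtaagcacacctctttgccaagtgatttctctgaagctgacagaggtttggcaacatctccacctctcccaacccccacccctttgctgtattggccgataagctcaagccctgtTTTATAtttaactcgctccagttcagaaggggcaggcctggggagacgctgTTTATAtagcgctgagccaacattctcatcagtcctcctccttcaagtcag
The Ren1 window holds 1 match on the strand of the gene, 29 bases before the start, and the Agt window 1 match 30 bases before it. The Enpep window holds no match on that strand and 2 on the opposite strand. Among 32851 promoter windows of the same length, 8.32% hold the motif on the strand of the gene and 13.6% on either strand. A match describes these letters only.

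Beyond the 6 members, 29 further genes of the pathway were listed, of which 27 were on the array and 26 were tested. On withdrawal 1 of the 26 rose and the other 25 missed the threshold, while of all genes tested 9.54% were called higher and 4.63% lower. Their median difference was 0.44, beside -0.02 over all genes. The gene that rose was Cpa3, a carboxypeptidase of mast cells that can trim angiotensin I. It was well above background on all 4 withdrawn arrays and on neither continuous one. The mean log2 level of the withdrawn arrays lay at least 12.3-fold above the continuous ones (fitted log2 difference 5.75 ± 1.27, limma adjusted p = 0.0204). Cpa3 entered the test through the withdrawn arrays alone, so its p-values are not read as support. The fitted size is measured against values at background, and with a common floor it was 3.55 (limma adjusted p = 0.256). Cpa3 lay at 0.63 and 2.72 in tumour tissue and at -5.60 and -4.49 in inflamed FCR liver. The bound used for the continuous arrays was -5.31, and off inflamed liver lay below it. The fold of the mean thus came from the tumours and does not hold for each withdrawn array. Without the off tumour the adjusted p was 0.0853, and without healthy Fah liver the difference was 2.58 with an adjusted p of 0.273; over all alternatives the adjusted p ran from 0.00361 to 0.273.

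The chymases, mast cell proteases that can form angiotensin II without ACE, showed the same picture of levels. Cma1 lay at -4.38 and -3.82 on continuous NTBC, at 0.83 and 3.40 in the off and 2xoff/on tumours and at -3.14 and -2.63 in inflamed FCR liver. Mcpt4 lay at -3.72 and -4.42, at 0.92 and 3.88, and at -3.94 and -3.47 in the same order of livers. Cma2 lay at -4.23 and -4.41, at -0.18 and 2.67, and at -4.71 and -3.93. For all 3 the tumours were the high arrays, and both inflamed FCR livers lay closer to normal FCR liver than to either tumour. Their withdrawal differences were 3.72 ± 1.16 (limma adjusted p = 0.0672), 3.42 ± 1.18 (0.0919) and 2.79 ± 1.18 (0.158), which did not pass. Without the 2xoff/on inflamed liver Cma1 (4.0, limma adjusted p = 0.0278) and Mcpt4 (3.71, 0.0412) passed, and without normal FCR liver Cma1 (6.50, 0.0106), Mcpt4 (6.12, 0.0175) and Cma2 (5.48, 0.0253) did. Without healthy Fah liver the differences dropped to 0.93 for Cma1, 0.72 for Mcpt4 and 0.096 for Cma2, none of them passing. Over all alternatives the adjusted p reached 0.795 for Cma1, 0.874 for Mcpt4 and 0.989 for Cma2.

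The difference of the withdrawal response between genotypes was 6.35 ± 1.43 for Cpa3, 5.57 ± 1.42 for Cma1, 5.41 ± 1.55 for Mcpt4 and 5.38 ± 1.55 for Cma2, larger in Fah mice, and none of the 26 pathway genes passed (limma). Without the off tumour, which leaves 1 tumour array, the differences were 7.39 for Cpa3, 6.85 for Cma1, 6.89 for Mcpt4 and 6.80 for Cma2. With slide as a block the limma adjusted p was 1.06e-06, 3.25e-06, 6.06e-06 and 1.40e-05, in a fit with 1 residual degree of freedom. Over all alternatives it reached 1 for each of the 4. Ctsg and Agtr2, next in size, differed by 1.30 ± 1.57 and 1.68 ± 1.97. Mast cell markers were summed beside these genes. Of the 6 measured, 3 were well above background on each continuous array, 6 in each tumour and 5 in each inflamed FCR liver, with a summed level of -2.11 and -2.12, 2.54 and 5.11, and -1.59 and -1.22 in that order (log2). The list holds Cpa3, Mcpt4 and Cma1 themselves. Among the others, the tryptase Tpsb2 lay at -5.81 and -5.65 on continuous NTBC, -1.58 and 0.57 in tumour tissue and -4.21 and -3.82 in inflamed FCR liver. The Fc receptor chain Fcer1a lay at -4.15 and -3.96, -1.97 and 0.083, and -4.16 and -4.23 in the same order. Ms4a2, another chain of that receptor, was well above background in the tumours alone, at -5.81 and -4.90, and lay between -6.69 and -5.20 on the other 4 arrays. The part of mast cell numbers was not tested.

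The alternative receptors were close to background. Mas1, receptor of angiotensin-(1-7), was well above background in both tumours, at -2.07 and -2.87, and in the 2xoff/on inflamed liver, at -4.10, and on no continuous array. The mean log2 level of the 4 withdrawn arrays lay at least 2.33-fold above the continuous ones (fitted difference 2.52 ± 0.88, limma adjusted p = 0.0933). That mean takes in the off inflamed liver at -7.33, which was not well above background. With a common floor the difference was 1.58 (adjusted p = 0.204). Without the off inflamed liver the limma adjusted p was 0.00983. Mas1 entered the test through the withdrawn arrays alone, so its p-values are not read as support. Agtr2, the type 2 angiotensin receptor, was well above background on 2 arrays, normal FCR liver at -3.13 and off inflamed FCR liver at -4.24. Its withdrawal difference was -1.98 ± 0.98 (adjusted p = 0.223). The renin receptor Atp6ap2 lay between 2.09 and 3.33 on all 6 arrays and differed by 0.19 ± 0.41 (adjusted p = 0.803), and none of 5 cathepsins and kallikrein or 9 endopeptidases and aminopeptidases passed.

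**Figure D3:**
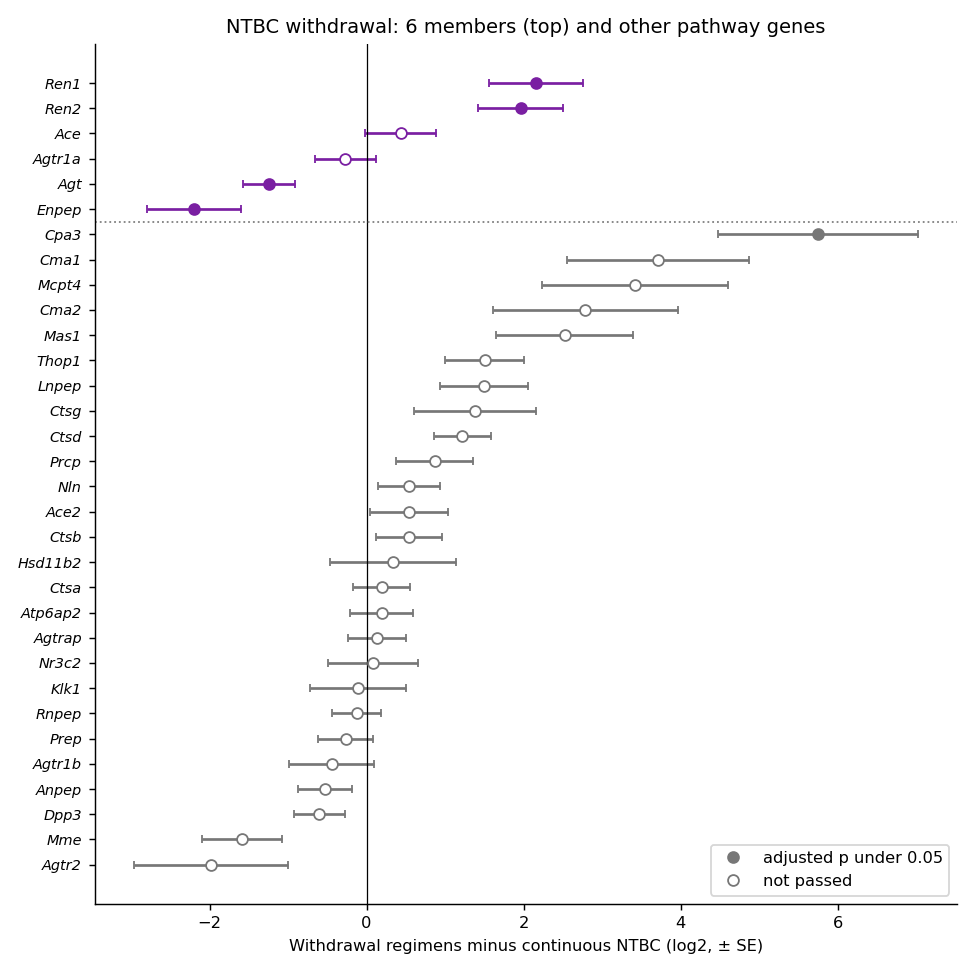
Withdrawal minus continuous NTBC (x axis, log2 difference ± SE from limma) for the 6 members above the dotted line and for the 26 other pathway genes below it, filled where the adjusted p was under 0.05. Of the genes below the line Cpa3 alone is filled, and Ren1, Ren2, Agt and Enpep are filled above it.

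Between the genotypes none of the 26 pathway genes passed over the 3 regimens, beside 0.293% of all genes (limma, regimen as a block). An unadjusted p under 0.05 was found for 6 of the 26, and for 1803 of all 15381 genes. Of the 6, 4 were carboxypeptidases and chymases. The median difference of the 26 was 0.02 beside 0.11 over all genes. FCR minus Fah was -4.60 ± 1.13 for Cpa3 (adjusted p = 0.232), -4.30 ± 1.02 for Mcpt4 (0.212), -3.77 ± 1.00 for Cma2 (0.263), -3.15 ± 1.02 for Cma1 (0.326) and -2.94 ± 0.73 for Mas1 (0.244). Agtr2 was well above background on 2 of 3 FCR arrays and on no Fah array, so it entered the test through FCR alone. The mean log2 level of the FCR arrays lay at least 1.93-fold above that of Fah (limma adjusted p = 0.288). That mean takes in the 2xoff/on inflamed liver at -7.66, which was not well above background. No difference is therefore read at that regimen. Leaving out the 2xoff/on tumour or the 2xoff/on inflamed liver takes that regimen out of the contrast. Either way the difference was -3.30 for Cpa3, -2.78 for Mcpt4 and -2.36 for Cma2. The same continuous and off pairs gave both, with 1 residual degree of freedom, so no p-value is read. On continuous NTBC and off they read -0.37 and -6.23 for Cpa3, -0.70 and -4.86 for Mcpt4, and -0.18 and -4.53 for Cma2. Cpa3 was well above background on neither continuous array. For Mas1 and Agtr2 no size is given there, since Mas1 was well above background on neither FCR array left in the contrast and Agtr2 on no Fah array. With normexp background correction and all 6 arrays, Cpa3 (-2.90, limma adjusted p = 7.19e-04), Mcpt4 (-3.15, 3.74e-04), Cma2 (-2.59, 0.00203) and Cma1 (-2.64, 0.00158) passed. Without either off array none of these genes passed, and over all alternatives the adjusted p reached 1.00 for each of these genes.

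**Figure D4:**
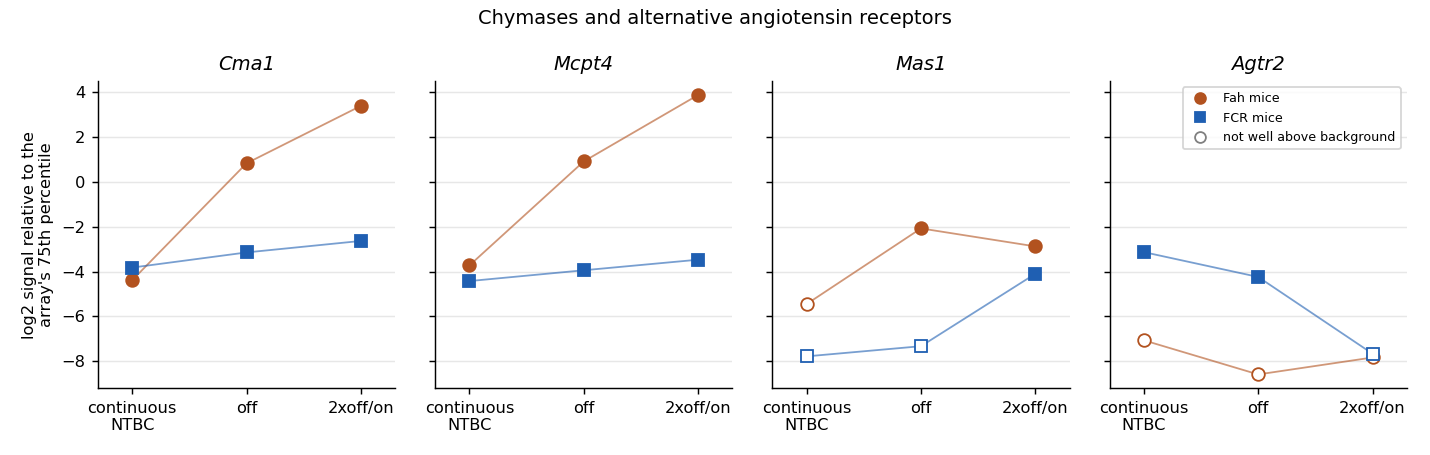
Log2 signal scaled to the 75th percentile of its array (y axis) for the chymases Cma1 and Mcpt4 and the receptors Mas1 and Agtr2 at the 3 NTBC regimens (x axis), 1 array per point, Fah mice as circles, FCR mice as squares and open symbols for values not well above background. Both chymases are high in the 2 Fah tumours, and Agtr2 is well above background in 2 FCR livers.

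The genes whose pattern over the 6 arrays was most like that of Ren1 were sought among 3826 tested genes with an SD of 1 or more. By Pearson r, as a description over 6 arrays that share their scaling, these were Ren2 (0.98), the methyltransferase gene Mettl21c (0.97), the MAP kinase phosphatase Dusp4 (0.96), the interferon-stimulated Isg15 (0.96) and Smco2 (0.94), and 4 genes reached 0.95. Apart from Isg15, these were not well above background in healthy Fah liver, nor Mettl21c in the off tumour, so their r takes values at background as measured. Dusp4 lay at -4.07 and -3.26 in the off and 2xoff/on tumours and at -2.11, 0.43 and 0.59 in FCR liver on continuous NTBC, off and 2xoff/on. Isg15 lay at 0.20, 1.88 and 1.80 in Fah liver and at 2.78, 4.03 and 5.15 in FCR liver at those regimens. As for Ren1, all 3 FCR arrays of both genes lay above all 3 Fah arrays. Both were picked for their likeness to Ren1, and the share of all genes with this order was not counted.

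Agt resembled many genes, 117 of 3827 reaching an r of 0.95. The closest were Sult2a8, a liver sulfotransferase (r = 0.996), Cyp7b1, an oxysterol hydroxylase of bile acid synthesis (0.99), Baat, which conjugates bile acids (0.99), Pank1 of coenzyme A synthesis (0.99) and Lrit1 (0.99). Cyp7b1 lay at 7.26 and 7.63 on continuous NTBC, at 2.86 and 1.27 in tumour tissue and at 4.38 and 3.41 in inflamed FCR liver. For Enpep 47 genes reached 0.95, led by Olfr342 (0.99), Adam21 (0.99), Amh (0.99), Arl4d (0.98) and Spsb4 (0.98). For Ace they were Plpp2 (0.98), Trim10 (0.97), Acmsd (0.97), Ybx3 (0.96) and the alpha-globin gene Hba-a1 (0.96), and for Agtr1a Olfr1510 (0.97), the macrophage scavenger receptor Cd163 (0.94), Colec10 (0.90), Gbp2b (0.88) and Erich3 (0.87). Of these, Trim10, Olfr1510, Erich3 and Olfr342 were not well above background on every array. Among the members themselves Agt and Enpep had an r of 0.92 and Ace and Enpep of -0.87.

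Genes next to Ren1 on its chromosome were set beside it, taking the 10 tested genes on either side in RefSeq order. FCR lay above Fah at all 3 regimens for 5 of the 20, against 24.6% among all genes. It lay below Fah at all 3 for 4 of the 20, and the share of all genes with that order was not counted. None differed by 1 or more at all 3 regimens in either direction. Their mean differences ran from -1.07 to 0.73 with a median of 0.24, while that of Ren1 was 3.1.

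**Figure D5:**
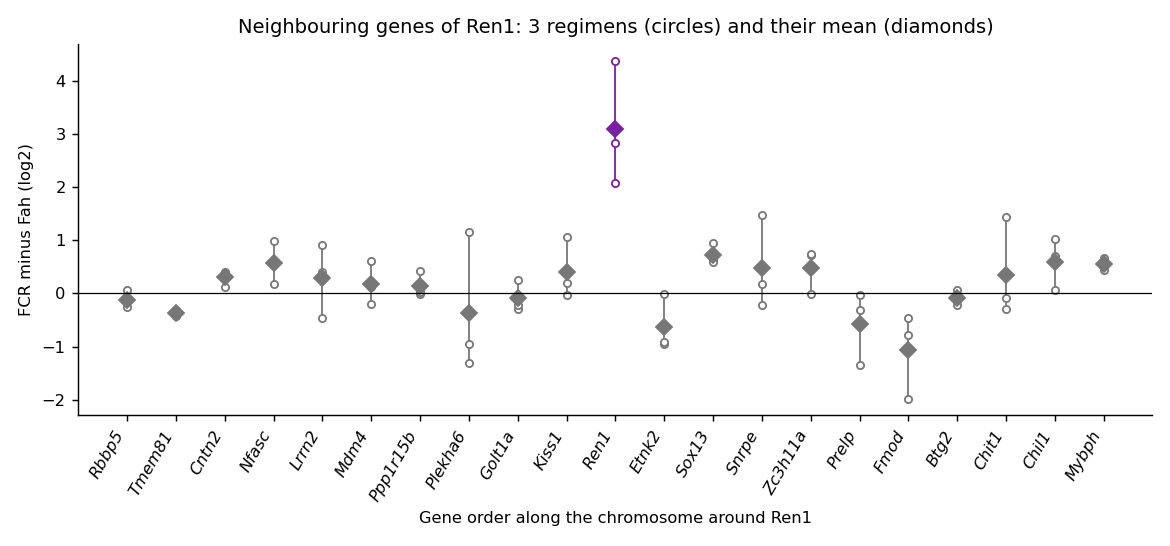
FCR minus Fah difference in log2 signal (y axis) for Ren1 and the 10 tested genes on either side in chromosome order (x axis), with circles for the 3 NTBC regimens and a diamond for their mean. The mean for Ren1 is 3.1, and those of the 20 neighbours lie between -1.07 and 0.73.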

How the data were processed

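RNA of 6 mouse livers was hybridised to single-colour Agilent arrays. Per the file headers, Feature Extraction 10.7.3.1 gave each spot a processed intensity, background-subtracted and not normalized between arrays; the submitters' processing notes name version 10.5. The series table deposited by the authors is on a log2 scale, with array medians of 6.46 to 6.48; its normalization is not given in the sources used.

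Control and outlier spots were removed, 29 probes that this left without a value on some array were dropped, and repeated spots were averaged. Values were log2 processed intensity minus the array's 75th percentile over all its non-control spots, outlier spots included. Accessions were matched to a RefSeq table of GRCm38.p6 for names and gene order: 26912 of 41145 probes had a name and 14233 had none. A gene was read from its brightest probe. Genes that 2 or more arrays held well above background entered limma 3.58.1 under R 4.3.3 (lmFit, eBayes with trend, two-sided, Benjamini-Hochberg over 15381 genes, 0.05). The withdrawal fit has genotype as a covariate and 3 residual degrees of freedom, and the other fits have 2. A group's only array was taken to vary like the rest, and the number of arrays limits the precision. The steps were tested on simulated data.

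The members and lists were chosen with earlier results of these data known. Named were all members and, of the other pathway genes, those that passed and the 6 with the largest difference per comparison; for likeness, the 5 genes of highest r with an SD of 1 or more for Ren1 and each member well above background on every array; for neighbours, those differing by 1 or more at all 3 regimens. Alternatives were normexp correction (offset 50), quantile normalization, the array median, no filter, a filter of 4 arrays, the mean of probes, every probe, eBayes without trend, the authors' deposited log2 values, slide as a block, no covariate and leaving out arrays. A common floor and leaving out either continuous array were chosen after seeing the data.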

Additional observations from a re-analysis of the deposited data

How the results depend on the processing

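On withdrawal 2180 genes and 4 members were called, with Ren1 and Ren2 counted apart although their probes may share signal. The authors' values gave 1307 genes and 0 members, and values floored at a common level 739 and 0. Members called were 0 with quantile normalization, 2 with the array median, and 1 with normexp correction, no filter, eBayes without trend, slide as a block or no genotype covariate. Leaving out 1 array gave 278 to 3138 genes and 0 to 4 members: 1021 and 0 without the off tumour, 1224 and 0 without the 2xoff/on tumour, 2 members without the 2xoff/on inflamed liver, 278 and 0 without healthy Fah liver, and 801 and 0 without normal FCR liver.

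For the difference of the withdrawal response, 0 genes became 7 with normexp correction, 97 with slide as a block, and 0 to 12 without 1 array. Reversed signs, none of them past the threshold, were -0.25 for Ren1, -1.22 for Ren2 and -0.23 for Agtr2 with normexp correction, 0.31 for Agt and 0.22 for Agtr1a with quantile normalization, 0.61 for Ace with the mean of probes and 1.35 with its other probe. With the authors' values they were -0.44 for Ren2, 0.33 for Agt and 0.13 for Agtr1a, and with floored values -0.039 for Ren2. Leaving out 1 array gave -0.61 to 0.40 for Agtr1a, -0.53 to 0.28 for Ace and -0.035 to 2.06 for Agtr2.

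For FCR against Fah, 45 genes became 348 with normexp correction, 13 with quantile normalization, 77 with the array median, 73 with no filter, 27 with the mean of probes, 29 without trend, 10 with the authors' values, 101 with every probe and 1 with no regimen block. Leaving out 1 array gave 0 to 352. The cause of these shifts was not tested. The mean difference of Ren1 stayed between 1.85 and 3.17 and that of Ren2 between 2.24 and 3.89.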

Other observations

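Other cell type lists are given as values, without a test. Bile duct markers (Krt19, Krt7, Epcam and Sox9, all 4 well above background on every array) had a summed level (log2) of 0.0042 and -0.026 in the 2 livers on continuous NTBC, 3.38 and 2.88 in the off and 2xoff/on tumours, and 2.05 and 1.18 in the inflamed FCR livers of those regimens. The 4 measured macrophage markers summed to 3.83 and 3.57, 5.01 and 5.60, and 5.19 and 4.02 in the same order, and 8 endothelial markers to between 3.70 and 5.05 on the 6 arrays. Lyve1, a marker of liver sinusoidal and lymphatic endothelium, lay at 4.19 in the off and 2.40 in the 2xoff/on inflamed FCR liver, and between -0.68 and -0.23 on the other 4 arrays. The 9 acute phase genes summed to between 9.59 and 10.8, and 5 T and B cell markers to between -1.16 and -0.085, with 2 to 5 of them well above background. Cd3e was the brightest of these 5 on every array, at -1.76 to -0.61. Cd3d, Cd8a and Ms4a1 read lower in FCR than in Fah liver at each regimen, and Cd3e and Cd79a did not. Cd8a was well above background in the tumours alone, at -2.40 and -3.13, and Ms4a1 in the Fah livers alone. Of 3 measured adrenal markers 1 or 2 were well above background on an array, and Cyp11b2, the aldosterone synthase, on none.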
